A study of Mus musculus with 9 samples.

Results

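Mitosis and kinetochore genes encode the machinery that condenses, attaches, checks and separates the chromosomes of a dividing cell. A list of 50 such genes was followed here in cultures of embryonic mouse cerebral cortex, and 48 of the 50 were measured, among 22180 genes with a named probe set. A gene counted as measured when an array probe set carried its symbol and no other. Ccnb1, a mitotic cyclin, and Ncapg, a condensin subunit, had no such probe set and are not given levels of their own. All cells came from wild-type CD1 mouse embryos, and 9 arrays fell into 3 groups of 3 biological replicates. The neuron group held cortical neurons taken at embryonic day 16 and kept in culture for 5 days in all. The precursor group held cortical precursors taken at embryonic day 13 and kept for 1 day. The co-culture group held neurons grown for 4 days, onto which precursors were then placed for 1 more day, so that its RNA came from both kinds of cell. One label field gives 4 days for the neuron cultures and another 5 in total, and embryonic age, days in culture and cell type cannot be told apart between the neuron and precursor groups. The labels do not say which embryos or litters made up a replicate, nor whether the neuron cultures received a drug against dividing cells. Levels are log2 values normalized by robust multi-array averaging (RMA), a method that puts all arrays on a common distribution. A difference of 1 is a 2-fold difference in measured array level, which need not equal the ratio of RNA amounts. In bulk RNA of this kind, fewer dividing cells and less RNA per dividing cell cannot be told apart.

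Mitosis begins when cyclin-dependent kinase, switched on by its cyclins and by CDC25 phosphatases, drives chromosome condensation and spindle assembly. Kinetochores, protein plates built on centromeres, then attach chromosomes to microtubules, and the spindle checkpoint holds the anaphase promoting complex in check until every chromosome is attached. Most of these genes are transcribed mainly in G2 and M phase, and neurons, which have left the cell cycle, express most of them weakly. In the embryonic cortex the dividing cells are the radial and intermediate precursors that give rise to neurons.

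Promoters of such genes are known for a pair of short elements, the CCAAT box and the cell cycle homology region (CHR, TTTGAA or TTCGAA), which is bound by the DREAM complex in resting cells and by MuvB with B-MYB and FOXM1 in dividing ones. RefSeq promoter windows of mouse build GRCm38.p6, from 250 bases before to 50 bases after the start site, were at hand for 42 of the 50 listed genes. The sequences below are shown because they hold the elements in differing layouts, or, for Cenpt, hold none. Each is the 150 bases before the start site, written 5′ to 3′ on the gene's strand. Capitals mark the CHR or the CCAAT box on either strand, so that a box on the other strand is seen as ATTGG, and the first form of the CHR as TTCAAA.
Cdk1: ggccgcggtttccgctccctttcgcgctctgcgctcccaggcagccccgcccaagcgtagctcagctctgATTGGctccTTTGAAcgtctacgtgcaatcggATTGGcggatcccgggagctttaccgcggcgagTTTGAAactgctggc
Cdc20: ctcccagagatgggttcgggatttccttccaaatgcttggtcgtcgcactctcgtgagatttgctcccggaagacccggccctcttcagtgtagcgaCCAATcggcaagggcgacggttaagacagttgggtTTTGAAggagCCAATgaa
Ube2c: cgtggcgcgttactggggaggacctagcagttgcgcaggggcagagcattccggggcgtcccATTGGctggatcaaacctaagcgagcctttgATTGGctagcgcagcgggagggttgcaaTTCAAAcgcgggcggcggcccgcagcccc
Top2a: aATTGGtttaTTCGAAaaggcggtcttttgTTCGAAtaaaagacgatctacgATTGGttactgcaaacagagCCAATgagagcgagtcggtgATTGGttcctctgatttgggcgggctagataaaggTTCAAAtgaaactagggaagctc
Mki67: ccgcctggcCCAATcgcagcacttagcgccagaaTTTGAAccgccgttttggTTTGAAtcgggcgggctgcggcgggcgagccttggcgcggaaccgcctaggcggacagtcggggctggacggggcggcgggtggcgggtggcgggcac
Ccnb2: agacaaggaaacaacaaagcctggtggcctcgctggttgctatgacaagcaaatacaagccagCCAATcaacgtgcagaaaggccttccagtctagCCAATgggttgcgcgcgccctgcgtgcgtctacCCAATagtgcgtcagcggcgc
Cenpt: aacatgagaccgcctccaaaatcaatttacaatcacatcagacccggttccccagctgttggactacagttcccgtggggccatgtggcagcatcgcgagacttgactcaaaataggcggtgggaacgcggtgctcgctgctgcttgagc
Cdk1 (chr10:69352913-69353062, minus strand), the mitotic kinase, had TTTGAA beginning at positions -71 and -15 from the start site and CCAAT on the other strand at -80 and -48. Cdc20 (chr4:118437344-118437493, minus strand), an activator of the anaphase promoting complex, had TTTGAA at -18 and CCAAT at -53 and -8. Ube2c (chr2:164769779-164769928, plus strand), the ubiquitin-conjugating enzyme of that complex, had TTTGAA on the other strand at -29, downstream of CCAAT at -88 and -57. The window of Top2a (chr11:99024190-99024339, minus strand) held both forms of the CHR and CCAAT in both orientations. In Mki67 (chr7:135716380-135716529, minus strand) the TTTGAA elements lay at -116 and -98, farther from the start site. Ccnb2 (chr9:70421555-70421704, minus strand), a mitotic cyclin, had 3 CCAAT boxes each 33 bases from the next, and its nearest TTTGAA began at position 5, after the start site and outside the printed stretch. No match to the CHR or CCAAT stood in this stretch or in the rest of the window of Cenpt (chr8:105852009-105852158, minus strand).

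Some genes had more than 1 window, and a gene was counted once if any of its windows held the letters. Over the 42 genes, TTTGAA or TTCGAA on either strand was present in 29 (69.05%), against 20.23% of 17491 protein-coding genes. CCAAT was present in 32 (76.19%), against 42.31%, and both kinds of element together in 27 (64.29%), against 8.22%. A CHR within 50 bases of the start site was found in 27 (64.29%), against 5.08%. Among the 27 genes with both kinds, the last CHR lay downstream of the last CCAAT in 23 (85.19%), against 40.4% of the protein-coding genes with both. An E2F-type element, TTTNNCGC, which marks many G1/S genes, was present in 7 (16.67%), against 7.16%. A CHR and a CCAAT can overlap by at most 1 base, and a match is a string of letters, not a measured site of binding. The difference between neurons and precursors was of similar size with and without these letters, given here as a description. Its median was -1.97 for the 28 measured genes with a CHR and -1.80 for the 12 without, and -1.93 for the 30 with CCAAT and -2.02 for the 10 without.

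The labelled cell types were checked against marker lists before the groups were compared. Of all genes, 20.2% were called lower in neurons than in precursors and 17.7% higher, and these shares stand beside each count of markers. The mean level over 11 neuron markers was 11.29 to 11.32 in the neuron arrays and 10.17 to 10.25 in the precursor arrays, and 10 of the 11 were higher in neurons. The mean over 11 radial precursor markers was 8.21 to 8.45 in neurons and 9.75 to 9.79 in precursors, and all 11 were lower in neurons. In the precursor arrays the mean of the neuron markers was thus far above the array medians of 6.75 to 6.79. All 7 intermediate progenitor markers were lower in neurons too, with means of 7.14 to 7.37 against 8.31 to 8.35. Of 6 endothelial markers 4 were lower, with means of 6.42 to 6.51 in neurons against 6.88 to 6.97 in precursors. Of 8 microglia and macrophage markers 3 were lower and 1 higher, with means of 7.05 to 7.18 against 7.23 to 7.42. Of 6 fibroblast and meningeal markers 1 was lower, with means of 6.67 to 6.85 against 6.79 to 7.06. Of 4 measured interneuron markers 2 were lower (Dlx2 and Gad2) and 2 higher (Gad1 and Lhx6). Their means were 9.336 to 9.449 in neurons against 9.085 to 9.516 in precursors. The part of these other cell types in the differences of the mitosis genes was not tested. Of 5 oligodendrocyte precursor markers none passed the test, and of 7 astrocyte markers 2 were lower in neurons (Aldoc and Gja1) and 2 higher. The lowest correlation between arrays of a group was 0.9929 over all genes.

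Every measured mitosis and kinetochore gene was lower in neurons than in precursors. All 48 passed the test (limma, Benjamini-Hochberg adjusted p from 3.21e-09 to 0.000773), where 20.2% of all genes tested were called lower. In each of the 48 the highest neuron array was below the lowest precursor array, which held for 23.6% of all genes. The median difference was -1.97 on the log2 scale, with a range from -3.08 to -0.41, against a median of 0.013 over all genes. In 43 of the 48 the fall was at least 2-fold, where 2.85% of all genes were called lower by that much, in 20 it was at least 4-fold, and in 7 at least 6-fold. The level in neurons was a median of 25.6% of that in precursors, from 11.8% for Top2a to 75.1% for Cenpt. The mean levels of the 48 over all arrays lay between the 41.3rd and 96.7th percentile of genes. In 33 of the 48 every neuron array was above its array median, and in 12 none was. The folds and percentages given here are ratios of array levels, and for those 12 they rest on low neuron levels without detection calls.

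**Figure D1:**
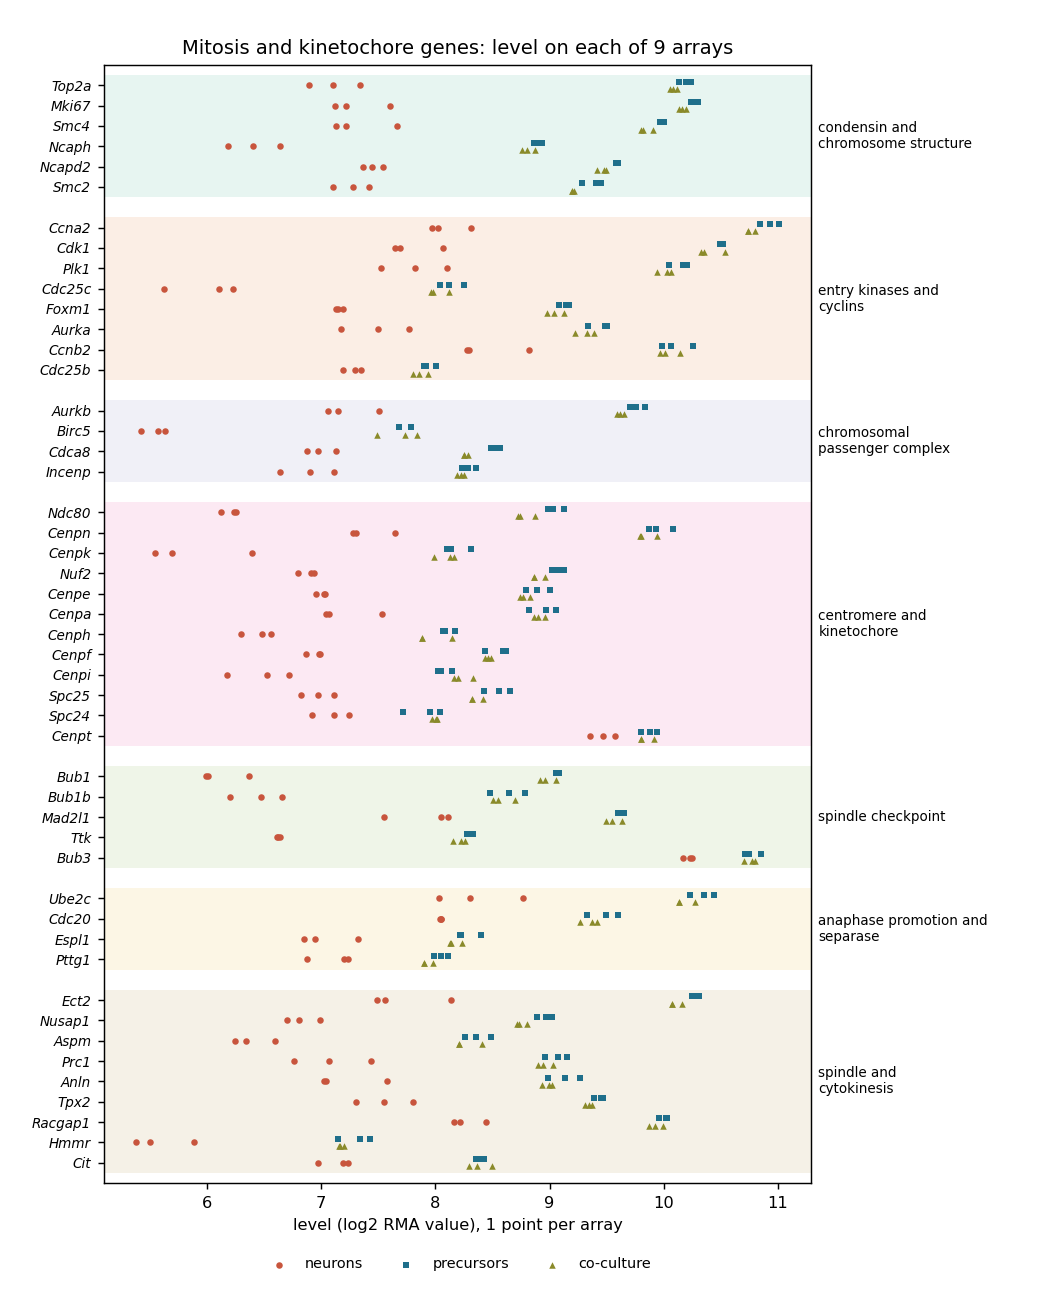
Log2 RMA level of each of the 48 genes on each of the 9 arrays, with genes grouped by role in mitosis and one point for each array, coloured by culture. The neuron points lie below the precursor points for all 48 genes, and the co-culture points lie close to the precursor points.

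Genes of chromosome condensation and structure had the greatest median difference of the 7 role groups, -2.57, and all 6 measured fell between 4.33- and 8.44-fold. Top2a, topoisomerase II alpha, which untangles sister DNA, read 7.10, 7.34 and 6.89 in the neuron arrays and 10.20, 10.13 and 10.24 in the precursor arrays. The neuron arrays were all low and at least 2.79 log2 units from the nearest precursor array. The difference was -3.08 (adjusted p = 1.24e-08), and this 8.44-fold fall was the greatest of the 48. Mki67, the source of the Ki-67 proliferation antigen that coats mitotic chromosomes, read 7.12, 7.60 and 7.22 in neurons and 10.30, 10.24 and 10.28 in precursors. Neuron replicate 2 was the highest of its group and still far below the precursors, and the difference was -2.96 (7.77-fold, adjusted p = 2.55e-08). Smc4, an ATPase of condensin, read 7.22, 7.67 and 7.13 in neurons and 9.97, 9.99 and 10.004 in precursors, a 6.26-fold fall. Its partner Smc2 had the smallest fall of the group, 4.33-fold, from 9.41, 9.28 and 9.46 in precursors to 7.11, 7.42 and 7.28 in neurons. In neither ATPase gene did the neuron and precursor arrays overlap.

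The kinases, cyclins and regulators of mitotic entry had a median difference of -2.06 and a wide range, from 1.58- to 7.09-fold. Ccna2, the cyclin of S phase and early mitosis, had the greatest fall, from 10.93, 10.84 and 11.01 in precursors to 7.98, 8.31 and 8.02 in neurons, and this was 7.09-fold (adjusted p = 1.1e-08). Cdk1 read 10.52, 10.49 and 10.51 in precursors and 7.69, 8.06 and 7.64 in neurons, a 6.54-fold fall. In both genes neuron replicate 2 was the highest neuron array. Plk1, a kinase of centrosome maturation and spindle assembly, fell 5.03-fold, from 10.17, 10.05 and 10.21 to 7.82, 8.10 and 7.52. Foxm1, the transcription factor that binds CHR promoters with MuvB, fell 3.93-fold, from 9.15, 9.08 and 9.17 to 7.19, 7.15 and 7.13, with closely spaced arrays in both groups (SD 0.031 and 0.048, n = 3 each). Cdc25b, a phosphatase that activates cyclin-dependent kinase and also has roles in the timing of neurogenesis, stood at the other end. It read 7.29, 7.35 and 7.20 in neurons and 7.90, 7.92 and 8.01 in precursors, a fall of 1.58-fold (adjusted p = 1.18e-05). The arrays of the groups did not overlap, though they were separated by only a fraction of the gap seen for Cdk1.

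The 4 genes of the chromosomal passenger complex, which corrects wrong attachments and later directs cytokinesis, fell between 2.65- and 5.76-fold. Aurkb, its kinase, read 7.06, 7.51 and 7.15 in neurons and 9.83, 9.70 and 9.75 in precursors, a difference of -2.52 ± 0.10 (SE). Incenp, the scaffold that anchors the kinase, read 7.11, 6.64 and 6.90 in neurons and 8.23, 8.29 and 8.35 in precursors, a difference of -1.40 ± 0.10 (SE). For Incenp the order of the neuron arrays was turned, with replicate 2 lowest.

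Of the 12 measured centromere and kinetochore genes the median difference was -1.70, and the range, from 1.33- to 7.18-fold, was the widest of the role groups on the log2 scale. Ndc80, the microtubule-binding subunit of the outer kinetochore, read 6.13, 6.24 and 6.25 in neurons and 9.13, 9.03 and 8.99 in precursors. It fell 7.18-fold with the lowest adjusted p of the 48 (3.21e-09), and its neuron arrays lay within 0.13 units of one another. Cenpa, the histone H3 variant that marks the centromere and stays on chromatin through the whole cell cycle, read 7.07, 7.04 and 7.53 in neurons and 9.06, 8.82 and 8.97 in precursors, a 3.33-fold fall. Its neuron replicate 3 lay above the other neuron arrays. Cenpt, an inner kinetochore protein that links centromeric DNA to NDC80, had the smallest fall of all 48. It read 9.46, 9.57 and 9.35 in neurons and 9.80, 9.88 and 9.94 in precursors, which is 1.33-fold with an adjusted p of 0.000773, and the groups were close but did not overlap.

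The spindle checkpoint genes were divided in the same way, with falls from 1.47- to 7.72-fold over 5 genes. Bub1, a checkpoint kinase that sits at the kinetochore, read 5.995, 6.36 and 6.01 in neurons and 9.08, 9.06 and 9.08 in precursors, a 7.72-fold fall (adjusted p = 1.22e-08). Its binding partner Bub3, which also acts outside the checkpoint, read 10.23, 10.25 and 10.17 in neurons and 10.74, 10.72 and 10.85 in precursors, a 1.47-fold fall (adjusted p = 2.38e-05). The neuron arrays of Bub1 were below the array medians of 6.75 to 6.79, and in both genes the groups did not overlap.

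Genes of anaphase promotion and separase had the smallest median difference of the role groups, -1.33, with falls from 1.93- to 3.93-fold over 4 genes. Ube2c read 8.30, 8.77 and 8.04 in neurons and 10.35, 10.23 and 10.44 in precursors, a 3.93-fold fall. Its neuron arrays were spread over 0.73 units, with replicate 2 highest. Cdc20 read 8.05, 8.04 and 8.05 in neurons and 9.60, 9.33 and 9.50 in precursors, a 2.68-fold fall, and its neuron arrays lay within 0.011 units of one another. Pttg1, securin, the inhibitor of separase, read 7.24, 7.20 and 6.88 in neurons and 8.11, 7.99 and 8.05 in precursors, a 1.93-fold fall and the least of the group. The gap between its nearest neuron and precursor arrays was 0.75 units.

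Among 9 spindle and cytokinesis genes the falls ran from 2.39- to 5.88-fold. Ect2, the exchange factor that starts the contractile ring, read 7.49, 8.14 and 7.56 in neurons and 10.31, 10.25 and 10.29 in precursors, a 5.88-fold fall, with neuron replicate 2 highest by 0.58 units. Aspm, a spindle pole protein whose loss causes microcephaly, read 6.34, 6.60 and 6.25 in neurons and 8.49, 8.26 and 8.35 in precursors, a 3.92-fold fall. Cit, citron kinase, which acts in abscission and is also present in neurons, read 6.97, 7.23 and 7.19 in neurons and 8.43, 8.35 and 8.40 in precursors, the smallest fall of the group at 2.39-fold. The neuron and precursor arrays did not overlap in any of these genes.

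**Figure D2:**
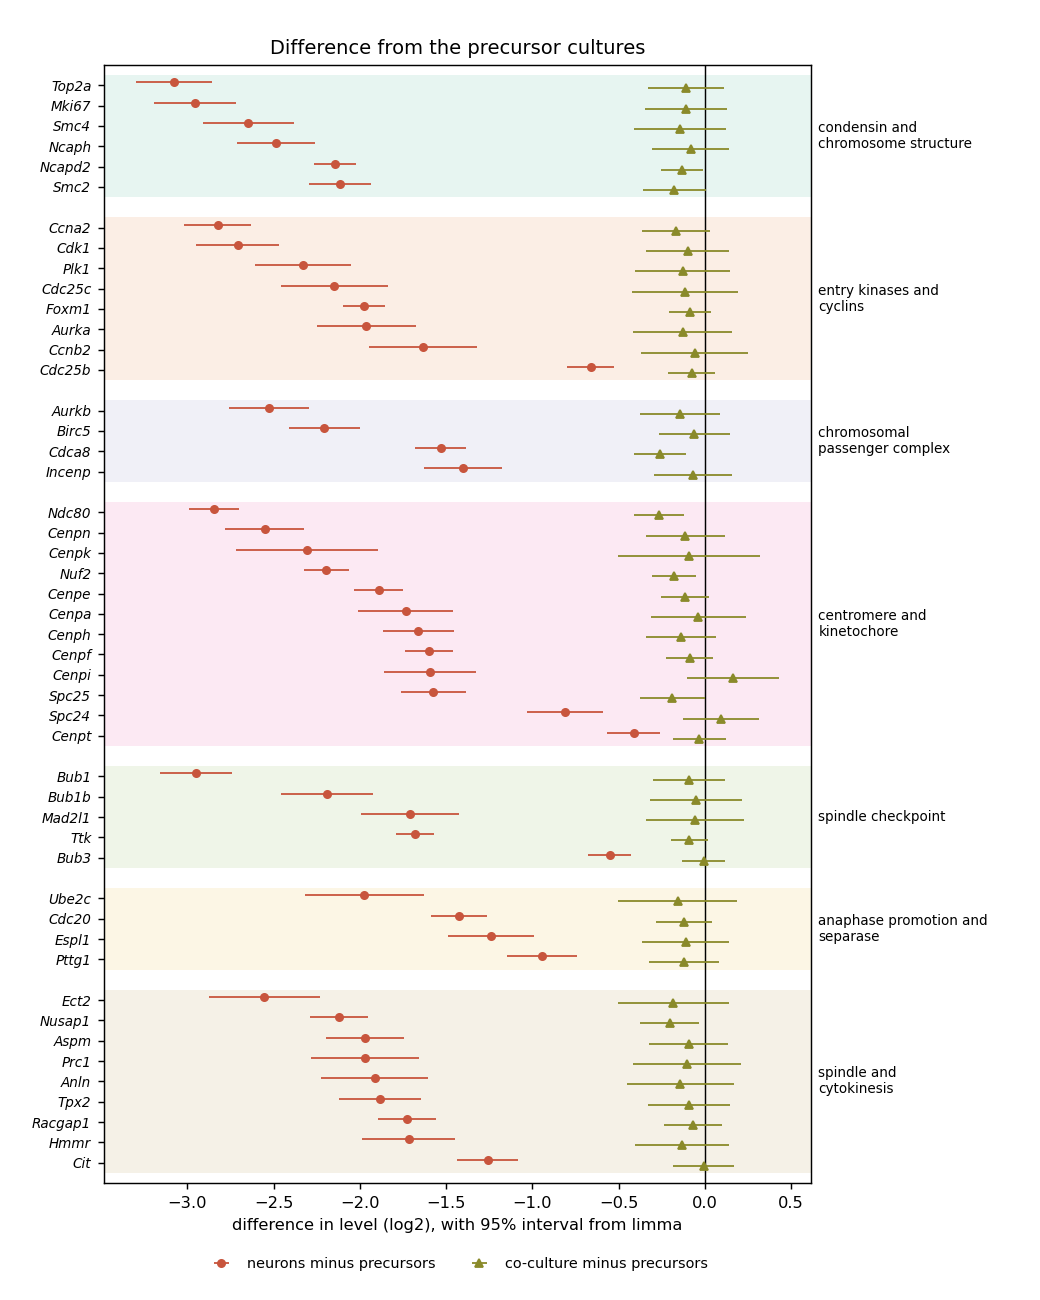
Log2 difference of each of the 48 genes between neurons and precursors and between co-cultures and precursors, as the fitted value with its 95% confidence interval, genes grouped by role. The neuron-minus-precursor values run from -3.08 to -0.41, and the co-culture-minus-precursor values from -0.27 to 0.16.

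Related genes outside the list were taken from 6 further lists, with 153 genes measured, of which 137 were lower in neurons and 1 was higher. Of all genes, 20.2% were called lower and 17.7% higher, and these shares also stand beside the counts for each list below. Of 26 other kinetochore genes, 23 were lower, with a median difference of -1.17. Knl1, the scaffold that receives the checkpoint proteins, fell 6.07-fold. The gene higher in neurons was Zwint, a kinetochore protein that binds KNL1 and is also found in neurons. It read 11.77, 11.71 and 11.75 in neurons and 11.44, 11.47 and 11.41 in precursors, a difference of 0.30 (adjusted p = 0.000397), with every neuron array above every precursor array. Zwint was thus opposite to every member of the list, while Cenpw (-0.22, adjusted p = 0.0902) and Mad2l1bp (-0.05, adjusted p = 0.661) did not pass.

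Of 17 core subunits and regulators of the anaphase promoting complex, 13 were lower in neurons and the median difference was -0.38. Anapc10, Anapc11, Anapc15 and Fzr1, the activator that works in G1 and in neurons, did not pass, whereas Fbxo5, an inhibitor of the complex, fell 3.25-fold (adjusted p = 5.25e-06). Of 16 cohesin and condensin II genes 14 were lower, with a median of -0.74 and the greatest fall in Esco2, the S-phase cohesin acetyltransferase (5.02-fold). Esco1 and Pds5b did not pass. Of 20 other mitotic kinases and regulators 17 were lower (median -1.13), and of 36 other spindle and cytokinesis genes 33 were lower (median -1.34), with Kif11, the motor that pushes spindle poles apart, at 7.48-fold. Of 38 G1/S and replication genes 37 were lower (median -1.50), with Mcm5, a subunit of the replicative helicase, at 6.09-fold. The exception was Fen1, a flap endonuclease that also serves DNA repair, at -0.23 (adjusted p = 0.105).

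Neuron arrays differed among themselves more than those of the other cultures. The median SD of the 48 genes was 0.206 in neurons, 0.068 in precursors and 0.06 in co-cultures, against 0.095, 0.073 and 0.065 over all genes. Neuron replicate 2 was the highest neuron array in 36 of the 48 genes, replicate 1 in 7 and replicate 3 in 5, where replicate 2 was highest in 35.2% of all genes. Its median excess over the mean of the other 2 was 0.234 for the 48 genes and -0.011 for all genes, and in 21 of the 48 the excess was at least 0.3. Radial precursor markers moved in the same arrays, being highest in replicate 2 for 9 of 11, with mean levels of 8.22, 8.45 and 8.21 in replicates 1 to 3. The markers of intermediate progenitors, which also divide, had mean levels of 7.33, 7.14 and 7.37, and 5 of 7 were lowest in replicate 2. The share of all genes lowest in replicate 2 was not counted. Over all genes the 25th percentile of the deviation from the neuron mean was -0.089 in replicate 2, against -0.05 and -0.051 in replicates 1 and 3. Sox2, a defining gene of radial precursors, read 8.03, 8.37 and 7.98. Nes, another gene of the radial precursors, read 7.51, 7.94 and 7.41, and both were highest in replicate 2. The 2 radial markers that went otherwise were Pax6 and Hes5. Pax6 read 6.746, 6.887 and 7.322, highest in replicate 3, and Hes5 read 7.755, 7.567 and 7.573, lowest in replicate 2. The neuron marker means were 11.32, 11.29 and 11.32, and 6 of 11 neuron markers were lowest in replicate 2. The part of these markers in the spread was not tested. Without neuron replicate 2 the median difference between neurons and precursors was -2.08 in place of -1.97, and all 48 genes were still called.

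**Figure D3:**
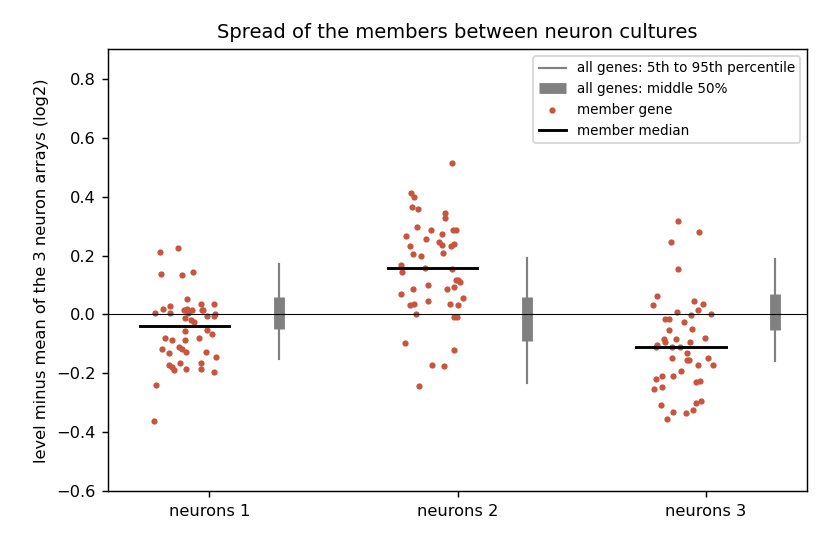
Deviation of each neuron array from the mean of the 3 neuron arrays, in log2 units, for the 48 genes and, for comparison, over all 22180 genes. Replicate 2 lies above the group mean for most of the 48 genes (median 0.156), while over all genes its median is -0.007.

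The comparison of co-cultures with precursors sets mixed RNA of neurons and precursors against RNA of precursors grown alone for the same 1 day. It does not give the level within the precursors of the co-culture. Dilution by neuron RNA at the share estimated below predicts a median difference of -0.192 for the 48 genes. No gene of the 48 was called in either direction (limma, smallest adjusted p = 0.0556, largest 0.986), where 0.18% of all genes were called lower and 3.53% higher. At an unadjusted p under 0.05, 6 of the 48 were lower, against 3.65% of all genes, and none was higher, against 9.22%. The levels in co-cultures were slightly lower in most, with 46 of 48 differences below 0, which held for 51.8% of all genes. The median difference was -0.11, so that the median gene stood at 92.8% of its precursor level, with a range from 83.0% to 111.8%. The 95% confidence interval held 0 for 42 of the 48. The outermost bounds were -0.51, a 1.42-fold fall, for Cenpk and 0.43, a 1.35-fold rise, for Cenpi, so larger differences lay outside the intervals of every gene. In 17 of the 48 genes all co-culture arrays were below all precursor arrays, against 6.77% of all genes, in 1 all were above, against 12.3%, and in 30 they overlapped.

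The lowest adjusted p was that of Ndc80, which read 8.87, 8.72 and 8.74 in co-cultures against 9.13, 9.03 and 8.99 in precursors, a difference of -0.27 with a 95% confidence interval from -0.41 to -0.12. Cdca8, borealin of the chromosomal passenger complex, read 8.25, 8.29 and 8.25 against 8.57, 8.52 and 8.49, a difference of -0.26 (interval -0.41 to -0.11, adjusted p = 0.0719). In both genes the co-culture arrays lay below the precursor arrays, and both passed the threshold under some other settings, where 1 to 3 genes of the 48 were called. The shares of all genes called under those settings are not given here. Cdca8 was called without neuron replicate 1 (adjusted p = 0.0281) or 2 (adjusted p = 0.0317), arrays that enter this comparison only through the shared spread. Nuf2, Nusap1, Ncapd2 and Spc25 were the other genes under an unadjusted p of 0.05. Cenpi, a constitutive centromere protein, was highest relative to precursors. It read 8.33, 8.20 and 8.17 in co-cultures and 8.02, 8.05 and 8.14 in precursors, a difference of 0.16 (adjusted p = 0.697), with every co-culture array above every precursor array.

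For several genes the co-culture and precursor arrays were interleaved. Foxm1 read 9.12, 9.04 and 8.98 in co-cultures and 9.15, 9.08 and 9.17 in precursors. Cenpt read 9.80, 9.91 and 9.80 in co-cultures and 9.80, 9.88 and 9.94 in precursors. Bub3 read 10.80, 10.78 and 10.71 in co-cultures and 10.74, 10.72 and 10.85 in precursors, so none of these 3 genes separated the cultures. In other genes the co-culture arrays were all lower by a small step that did not pass the test. Top2a read 10.08, 10.05 and 10.12 in co-cultures, with a difference of -0.11 (adjusted p = 0.772). Mki67 read 10.16, 10.20 and 10.13, with a difference of -0.11 (adjusted p = 0.797), and Ccna2 read 10.80, 10.74 and 10.74, with a difference of -0.17 (adjusted p = 0.489). None of the 6 further lists had a gene called between co-cultures and precursors, where 0.18% of all genes were called lower and 3.53% higher.

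Against neurons, co-cultures were higher in all 48 genes (adjusted p from 3.52e-08 to 0.00159), where 20.3% of all genes were called higher, and the arrays overlapped in none, where 23.7% of all genes had every co-culture array above every neuron array. The median difference was 1.82, against 1.96 without neuron replicate 2. This comparison shares the co-culture arrays with the preceding one and the neuron arrays with the first, so the 3 sets of values are not independent. The smallest difference, 0.38, was that of Cenpt and the greatest fold was 7.83 for Top2a.

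Because the co-cultures held both kinds of cell, their levels were also set against a mixture of neuron and precursor RNA. The neuron share of the RNA was taken from genes at least 4-fold apart between the groups, with the listed genes and the 6 further cell cycle lists left out. Genes higher in neurons (106) gave a share of 22.57%, and genes higher in precursors (62) gave 10.94%. Over the 3 co-culture arrays the SD was 1.2 for the first share and 1.49 for the second. The mean of the 2 shares was 16.75% (SD 0.43 over the same arrays), and it was used for the prediction. That SD does not take in the gap between the 2 shares. Diluting precursor RNA to that extent predicts a median difference of -0.192 from precursors for the 48 genes, from -0.23 to -0.062. The measured levels were above the predicted ones in 43 of 48 genes, against 53.8% of all genes, by a median of 0.08. This lean was not particular to the 48 genes. Also above the prediction were 33 of 38 G1/S and replication genes, 9 of 11 radial precursor markers and 11 of 11 neuron markers. Because the share used lies between the 2 estimates, the typical gene of either set, neuron-high or precursor-high, lies above its prediction by construction. No single gene departed from the prediction (smallest adjusted p = 0.564, for Cenpi), where 0.0857% of all genes were called, and 1 of the 48 passed at an unadjusted p under 0.05, against 7.66% of all genes. The size and sign of the median departure of the 48 genes followed the share chosen. With the share from precursor-high genes alone the median was 0.0145 and 28 genes were above, with the share from neuron-high genes alone it was 0.15 and 47 were above, and with the share lowered by 0.1 of the RNA it was -0.0312 and 39 were below. Without co-culture replicate 1 the median was 0.053. Read the other way, the 43 genes at least 2-fold apart gave a median neuron share of 9.37%, with 6.09%, 12.42% and 12.40% in the 3 co-culture arrays. Single genes ran from -17.65% for Cenpi to 25.22% for Cdca8. The median was nearer to the share of the precursor-high genes than to that of the neuron-high genes. The 43 genes are themselves higher in precursors, so this restates the departure above and adds no separate evidence. The uncertainty of the share itself was not part of these tests.

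**Figure D4:**
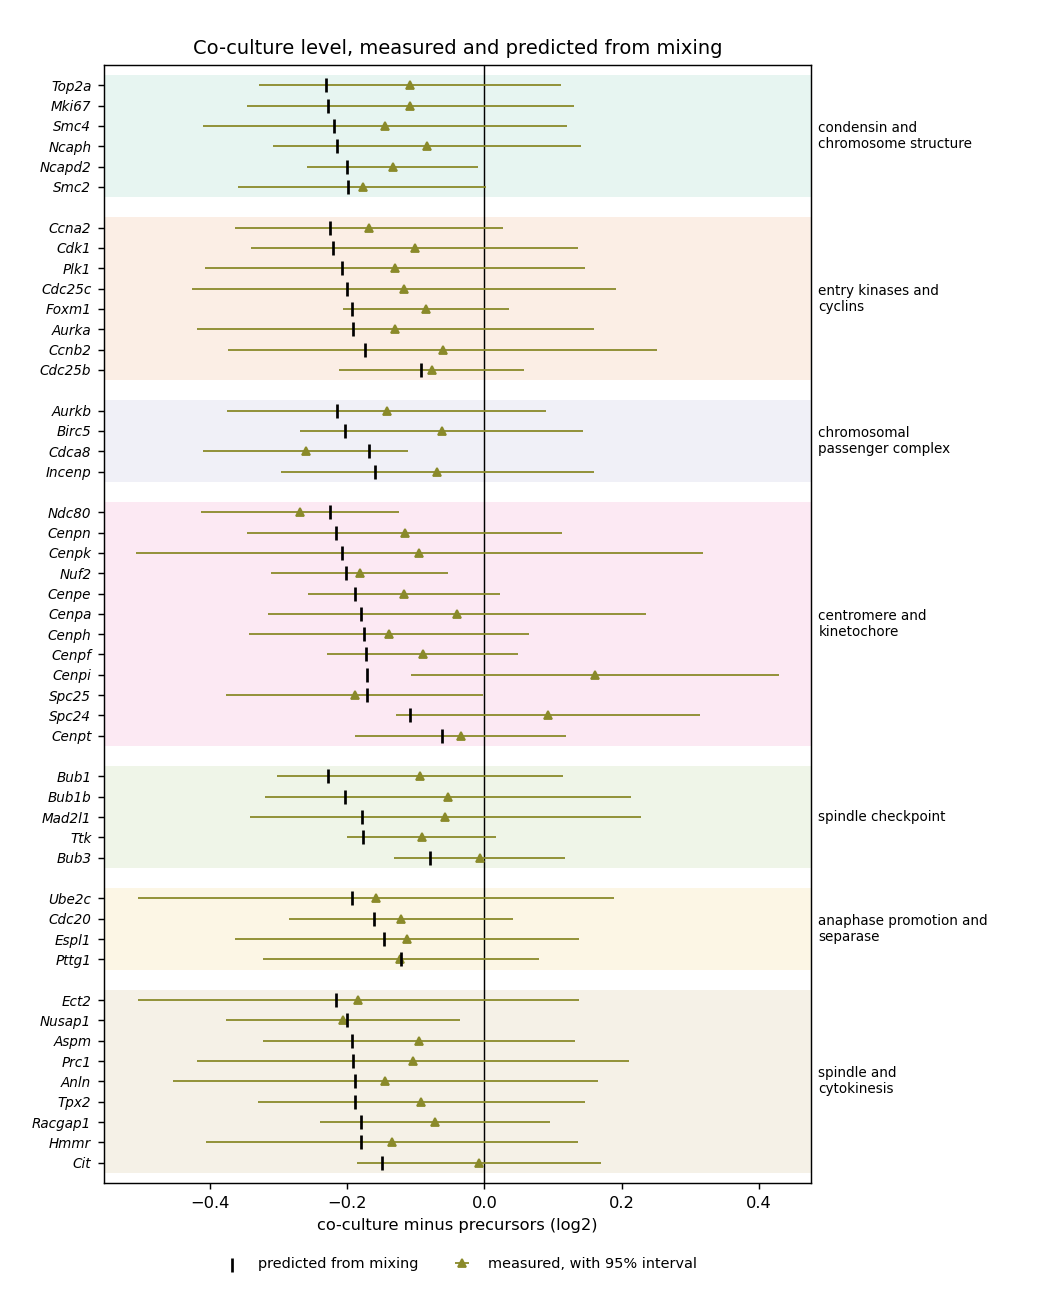
Co-culture-minus-precursor difference measured for each of the 48 genes, shown as triangles with 95% confidence intervals, and the difference predicted from a mixture with 16.75% neuron RNA, shown as black ticks, both in log2 units with genes grouped by role. Predicted values run from -0.23 to -0.062, and the triangle lies to the right of the tick for 43 of the 48 genes.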

How the data were processed

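RNA from 9 cultures (100 ng of total RNA each, per the labels) was measured on Affymetrix whole-transcript arrays. The deposited values are log2 expression levels that the authors made with RMA in the R package oligo, per the submitters' processing notes; versions and genome build are not given in the sources used here. Array medians were 6.75 to 6.79. The platform annotation gave 1 symbol to 23521 of the 41345 probe sets, several to 1814 and none to 16010. Where a gene had several probe sets, that of highest mean was kept, which left 22180 genes. RMA gives no detection calls, and the number of arrays limits the precision.

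All 22180 genes were fitted with limma 3.58.1 in R 4.3.3 (lmFit and eBayes, 3 groups, no block, no filter on low values, two-sided), with Benjamini-Hochberg adjustment over all genes and a threshold of 0.05. The mixture was tested in the same fit. Scripts were tested on simulated data. The genes and lists were chosen with earlier results of these data known. Genes named are those with the greatest and least neuron-minus-precursor difference in each role group, plus Mki67, Top2a, Cdk1, Ccnb1, Bub1, Bub3, Cenpa, Cenpt, Cdc25b, Cdc20, Plk1, Foxm1, Cit, Smc4 and Aspm; those in the co-culture comparison under an unadjusted p of 0.05, the interleaved examples, and genes named from the further lists were chosen after their values were seen. The cell type markers named singly were likewise not fixed in advance. Alternatives were another filter, scaling, probe set rule, weights, variance prior, block, share, 2 groups, and each array left out.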

Additional observations from a re-analysis of the deposited data

How the results depend on the processing

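All 48 genes kept their call between neurons and precursors and between co-cultures and neurons under every alternative in which they were tested. The 75th-percentile filter left 39 of them. Of the 48, 12 passed the filter at the array median with no neuron array above it, only through the groups where they were high. For those 12 that filter is no independent check of the call. Each of the 48 had only 1 probe set with its symbol alone, so the other probe set rule could not change their levels. Between co-cultures and precursors the count of calls rose from 0 to 2 with genes filtered at the array median (Cdca8 and Ndc80), to 3 with the 75th-percentile filter (Cdca8, Ndc80 and Nuf2), and to 1 with array weights, with a trended variance prior or with only the 2 groups compared; with each array left out it was 0 to 1. The filters test fewer genes, 13012 and 7670 in place of 22180. The shares of all genes called under these settings are not given here, so the counts are not set against a background. The median difference between co-cultures and neurons was 1.75 with cyclic loess, 1.89 with array weights, and 1.73 to 1.96 with each array left out, against 1.82. The median departure from the mixture was 0.15 with the share from neuron-high genes, 0.0145 with that from precursor-high genes, 0.21 with the share raised by 0.1, and -0.0312, the sign reversed, with the share lowered by 0.1. With each array left out it was 0.053 (without co-culture replicate 1) to 0.1045, against 0.0798. The cause of the other changes was not tested. With the replicate number as a block the counts were 48, 0, 48 and 0, as without it. Whether the numbers pair the cultures was not settled: the correlations of same-numbered deviations over all genes were 0.01, 0.16 and -0.11 between neurons and precursors, 0.24, 0.17 and 0.03 between co-cultures and precursors, and -0.02, 0.25 and 0.17 between co-cultures and neurons. Over the 13012 filtered genes those between co-cultures and precursors were 0.35, 0.30 and 0.16. Correlations between arrays of different number were not set beside them, so these values cannot decide whether the numbers mark pairs.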

Other observations

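Probe sets that carry several symbols were kept out of the report, and some name a gene of the list. The one shared by Ncapg and Lcorl had a mean level of 6.56 in neurons, 8.65 in precursors and 8.55 in co-cultures. The one shared by Oip5 and Nusap1 had 5.29, 6.69 and 6.61. Those shared by Top2a and Taf1d had 6.61, 7.68 and 7.53, and 7.12, 8.26 and 8.14. In each the neuron level was the lowest, by 1.07 to 2.10 log2 units from precursors, and which of the named genes gave the signal cannot be told from these values.

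Within the other cultures the 48 genes also leaned to 1 array. Precursor replicate 2 was the lowest precursor array in 32 of the 48, against 38.0% of all genes, and co-culture replicate 1 was the highest co-culture array in 34, against 28.7%. The spread behind these counts was small, with a median SD of 0.068 in precursors and 0.06 in co-cultures. Fibroblast and meningeal markers had a mean level of 7.74 in co-culture replicate 2, against 7.18 and 6.88 in replicates 1 and 3.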
